A study of Homo sapiens with 6 samples.

Results

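The actin and tubulin cytoskeleton was followed through 10 genes of 57209 in the count tables: ACTB, ACTG1 and ACTA2, which encode actins; TAGLN, TPM1, MYL9 and AIF1L, which encode proteins that act on actin filaments; TUBA1B and TUBB, which encode tubulins; and TUBA1B-AS1, an antisense gene opposite TUBA1B. They were taken by gene identifier, and every further gene with an exon overlapping one of theirs on the other strand was added, which gave 7 more. The RNA was that of MB157, an established cell line of human triple-negative breast cancer, in a Cas9-carrying form per the titles. In 3 libraries the cells had received an sgRNA against SOX9, labelled SOX9 KO sgRNA, and in 3 a control sgRNA, in each case for 4 days and followed by sorting for the top 50% of sgRNA-expressing cells. The series text describes the cells of both groups as stably expressing SOX9. All libraries were total RNA from this 1 line, and the labels call the replicates technical, so p-values here reflect variation among the 6 libraries, which may be technical, rather than among independent experiments. In such bulk samples fewer cells with a transcript and less transcript per cell cannot be told apart.

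Actin filaments and microtubules are polymers of actin and of paired alpha and beta tubulin. Beta and gamma actin build the filaments of non-muscle cells, whereas alpha smooth muscle actin, encoded by ACTA2, marks smooth muscle, myofibroblasts and the myoepithelial cells of the breast. Many actin genes and contractile genes are driven by the transcription factor SRF with its MRTF coactivators, which are released when the pool of unpolymerised actin shrinks. Tubulin genes answer to their own pool too, through decay of their mRNAs when free tubulin accumulates.

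The libraries were small. Totals over all genes ran from 776125 to 1018854 counts with the SOX9 sgRNA and from 777960 to 881655 with the control sgRNA. SOX9 itself had 37, 39 and 60 counts in the SOX9 sgRNA libraries, against 38, 52 and 44 in the control libraries (log2 fold change -0.22, SE 0.26, adjusted p = 0.70 by edgeR). A guide need not lower the transcript it cuts, so these counts do not check the labels. Of the keratin and adhesion genes that mark epithelial cells, all 5 had counts in every library, with 812 to 1025 summed CPM in SOX9 sgRNA libraries and 960.4 to 1044 in control libraries. The 5 other markers of the smooth muscle lineage were mixed. DES was at 0 in every library, CNN1 had 0 to 6 counts with the SOX9 sgRNA and 0 to 1 with the control sgRNA, and LMOD1 had 2 to 6 and 0 to 1. MYH11 had 106 to 119 counts with the SOX9 sgRNA and 67 to 84 with the control sgRNA, and SMTN had 25 to 44 and 36 to 39. Fibroblast markers summed to 3.89 to 10.8 CPM with the SOX9 sgRNA and 2.67 to 5.75 with the control sgRNA, with LUM at 0. CPM is the count scaled by the summed counts of tested genes in its library and by TMM factors, which offset differences in composition between libraries. These factors were 1.05 to 1.08 with the SOX9 sgRNA and 0.936 to 0.940 with the control sgRNA. Genes with any count numbered 20207 to 21082 with the SOX9 sgRNA and 18326 to 18818 with the control sgRNA. The groups thus differed in composition, and small changes depend on the scaling.

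The highest counts lay largely under genes that overlap another gene on the other strand. The library kit keeps strand, per the labels' protocols, and the authors counted with strand setting 1, per the file headers. Of the 100 genes with the highest mean raw CPM, 92 overlapped an exon of some other gene in the opposite direction. A count given here for a gene is the count deposited under its identifier, and the counts of genes that overlap it on the other strand are called opposite counts. Whether a count comes from the gene it is named for or from the gene opposite it was not tested, since gene totals do not hold read orientations. Whether setting 1 is the orientation of this kit's reads was not tested either. If it is not, a count under an identifier is of reads antisense to that gene, also where no exon lies opposite, as for ACTB, ACTG1, AIF1L, CNN3 and CALD1, so values are given as counts under an identifier and not as expression of the gene.

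Promoters are shown first for the genes whose own or opposite counts the results turn on. RefSeq windows on GRCh38.p14, from 250 bases before to 50 bases after a gene's start, were found for 6 of the 10 genes, in 8 windows. They show the genes' own starts. ACTA2 has windows at an upstream start (chr10:88991288-88991587, minus strand) and at a downstream start (chr10:88952724-88953023, minus strand). In the first the capitals mark ACAAT, the core bound by SOX proteins, searched on both strands and present in 27.4% of the 35116 promoters. In ACTG1 (chr17:81512750-81513049, minus strand) the capitals mark a CArG box, the element bound by SRF, which 1.29% of promoters hold in the exact form searched. In TUBA1B (chr12:49131346-49131645, minus strand) the capitals mark GGGCGG or its reverse complement, the core of a GC box, present in 45.0% of promoters. 2 of its 3 copies overlap and print as 1 run of capitals.
ACTA2 upstream start: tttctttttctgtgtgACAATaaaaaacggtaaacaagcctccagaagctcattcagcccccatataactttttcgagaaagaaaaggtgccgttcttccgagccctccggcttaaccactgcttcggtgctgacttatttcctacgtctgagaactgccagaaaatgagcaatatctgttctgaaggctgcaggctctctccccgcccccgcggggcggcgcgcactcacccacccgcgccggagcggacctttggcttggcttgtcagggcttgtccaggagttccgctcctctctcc
ACTA2 downstream start: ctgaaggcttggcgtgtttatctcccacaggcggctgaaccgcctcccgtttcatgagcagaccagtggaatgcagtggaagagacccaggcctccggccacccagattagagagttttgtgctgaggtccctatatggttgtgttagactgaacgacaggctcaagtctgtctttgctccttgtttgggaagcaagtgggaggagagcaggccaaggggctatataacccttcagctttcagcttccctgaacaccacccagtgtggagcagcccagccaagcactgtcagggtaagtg
ACTG1: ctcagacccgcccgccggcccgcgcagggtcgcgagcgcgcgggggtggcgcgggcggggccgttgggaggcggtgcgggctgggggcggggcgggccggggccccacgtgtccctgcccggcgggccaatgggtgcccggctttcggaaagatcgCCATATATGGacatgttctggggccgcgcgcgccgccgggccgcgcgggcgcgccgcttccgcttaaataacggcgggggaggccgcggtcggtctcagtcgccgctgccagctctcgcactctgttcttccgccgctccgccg
TUBA1B: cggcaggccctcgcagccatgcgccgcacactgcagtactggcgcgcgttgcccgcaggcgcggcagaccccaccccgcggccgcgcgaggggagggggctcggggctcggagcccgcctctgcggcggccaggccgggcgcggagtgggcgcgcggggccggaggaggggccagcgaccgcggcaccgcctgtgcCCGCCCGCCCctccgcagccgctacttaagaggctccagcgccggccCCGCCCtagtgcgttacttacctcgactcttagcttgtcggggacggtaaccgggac
The CArG search took only the exact form CCWWWWWWGG, where W is A or T. It found that form in no window of ACTA2, TPM1, TUBA1B or TUBB, which says only that these letters are absent from these windows. The downstream ACTA2 window holds ccctatatgg and ccttgtttgg, each a single letter away from that form. Such near forms were not searched for, and binding of SRF was not tested. ACAAT was also found once in each of the TUBB windows. The window of TUBA1B-AS1 covers the same DNA as that of TUBA1B, read on the other strand, over 290 of 300 bases, and the RefSeq starts of the gene and its antisense partner lie 211 bases apart.

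With the SOX9 sgRNA, counts opposite ACTA2, MYL9 and the end of TPM1 rose, counts opposite the tubulin genes TUBA1B and TUBB fell, and counts of AIF1L and ACTB fell. Of the 10 genes 8 passed the filter on low counts, and of these 0 were higher and 3 lower by edgeR's quasi-likelihood test at an adjusted p of 0.05, namely TUBA1B-AS1, AIF1L and ACTB. At an unadjusted p under 0.05, 1 was higher and 5 lower, and DESeq2 called 0 higher and 4 lower. Over all 7959 genes tested, 9.01% were called, 2.99% higher and 6.02% lower, and 8 genes are too few to set against those shares. Of the 7 added genes 6 were tested, with 3 higher and 1 lower by edgeR. Among all tested genes that overlap an exon in the opposite direction, 3.4% were higher and 7.86% lower. ACTA2 and TAGLN did not pass the filter, and neither did FAS opposite ACTA2. TPM1 and ACTA2-AS1 passed it only through the SOX9 sgRNA libraries, where they are high, since 0 of 3 control libraries reached its level, so a difference between groups was a condition of their being tested.

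**Figure D1:**
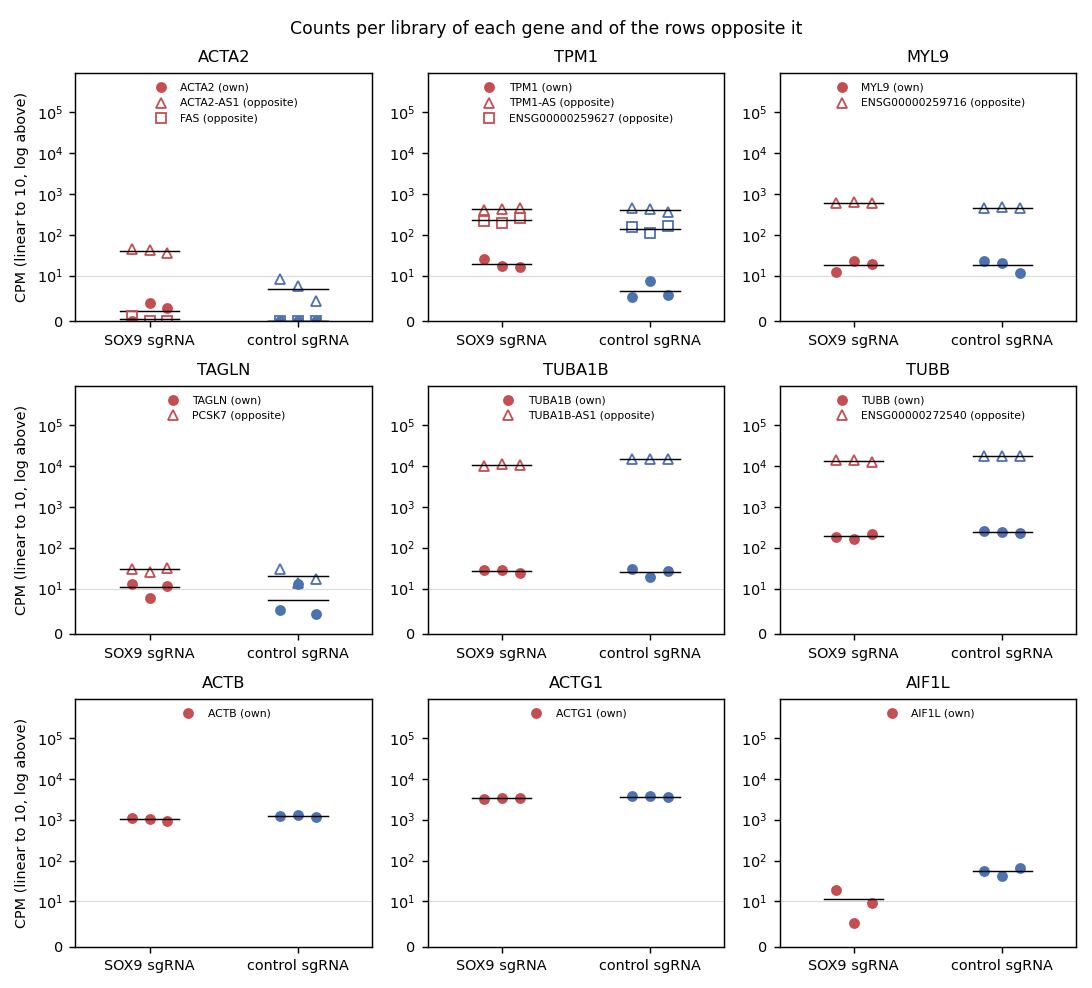
CPM of each gene (filled circles) and of the genes opposite it (open symbols) in each library, on an axis that is linear up to 10 and logarithmic above; red is SOX9 sgRNA, blue is control sgRNA, and black lines are means of 3 libraries. Counts opposite ACTA2 sit between 36.0 and 45.8 CPM with the SOX9 sgRNA, above all control libraries, while TUBA1B-AS1 and the gene opposite TUBB lie lower with the SOX9 sgRNA.

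Of the actin genes, counts of ACTB, the beta actin gene, fell slightly and those of ACTG1, the gamma actin gene, did not pass the threshold. ACTB (ENSG00000075624, chromosome 7, 5566782 to 5603415, minus strand, GRCh37 as are all gene positions below) had 922, 801 and 945 counts with the SOX9 sgRNA and 937, 1014 and 820 with the control sgRNA. Scaled for library size these were 1024 ± 96.4 CPM in SOX9 sgRNA libraries and 1239 ± 55.3 CPM in control libraries (SD, n = 3 each). The groups did not overlap, as held for 24.5% of all genes tested. The log2 fold change was -0.28 (SE 0.079, adjusted p = 0.013 by edgeR). The call was lost without control library 1 (-0.28, edgeR adjusted p = 0.058), control library 2 (-0.26, 0.062) or SOX9 sgRNA library 3 (-0.21, 0.10), and when scaled by library totals without TMM factors (-0.09, 0.49). No annotated exon lies opposite ACTB.

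ACTG1 (ENSG00000184009, chromosome 17, 79476997 to 79490873, minus strand) had the highest count of the 9 protein-coding members. It had 2678, 2602 and 3458 counts with the SOX9 sgRNA, or 3324 ± 86.2 CPM, and 2804, 2916 and 2489 with the control sgRNA, or 3675 ± 85.9 CPM (SD, n = 3 each). The groups did not overlap, but the log2 fold change of -0.14 (SE 0.059, adjusted p = 0.13 by edgeR) did not pass the threshold, with a 95% interval from -0.26 to -0.03. DESeq2 called it (-0.16, adjusted p = 0.028), and with library totals the sign turned (0.04).

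The counts of gamma actin were gathered at 1 place. ENSG00000266077, an 84-base gene within an exon of ACTG1 on the same strand (chromosome 17, 79478052 to 79478135), had 1860, 1918 and 2501 counts with the SOX9 sgRNA and 2058, 2034 and 1777 with the control sgRNA. The counting did not exclude fragments that touch several genes, so a fragment there adds to both, and the number for the short gene equals 69.5% to 73.7% of the ACTG1 count in each library, over 2.82% of its exon length. The corresponding 84-base gene in ACTB, ENSG00000263900 (chromosome 7, 5567734 to 5567817), had 3.35% to 5% of the ACTB count over 2.58% of its length. Most of the ACTG1 count therefore overlapped a short stretch, and for ACTB this was not so. The share in ACTG1 averaged 0.718 of the count with the SOX9 sgRNA and 0.715 with the control sgRNA (exact two-sided permutation test on log ratios, p = 0.80, where 3 against 3 libraries allow no p below 0.10).

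Copies of these genes hold few counts. The 11 genes named as ACTB pseudogenes had 0 to 1 count in all per library, and the 21 named as ACTG1 pseudogenes had 14 to 33 with the SOX9 sgRNA and 19 to 27 with the control sgRNA. Reads shared between near-identical copies can be lost or split in such counting, so the levels of the actins and tubulins are uncertain. Of the other actin isoforms, ACTA1 of skeletal muscle and ACTC1 of heart had 0 counts in every library, and ACTG2 of enteric smooth muscle had 0 to 1 with the SOX9 sgRNA and 0 to 3 with the control sgRNA.

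ACTA2 (ENSG00000107796, chromosome 10, 90694831 to 90751147, minus strand) was close to absent under its own identifier, with 0, 3 and 3 counts in the SOX9 sgRNA libraries and 0 in each control library. These are at or under the floor of 3 counts that a library with 0 allows, so no fold is given. The change lay opposite it. ACTA2-AS1 (ENSG00000180139, chromosome 10, 90692400 to 90700368, plus strand), whose exons overlap those of ACTA2 over 516 bases, had 38, 32 and 37 counts with the SOX9 sgRNA, against 7, 6 and 3 with the control sgRNA. All 3 SOX9 sgRNA libraries lay above all 3 control libraries. In CPM these were 41.1 ± 4.89 with the SOX9 sgRNA and 7.09 ± 2.56 with the control sgRNA (SD, n = 3 each), a log2 fold change of 2.49 (SE 0.42, 95% interval 1.65 to 3.34, adjusted p = 8.20e-06 by edgeR), or 5.63-fold. When any single library was left out the value stayed between 2.25 and 2.72 and past the threshold. ACTA2-AS1 passed the filter only through the SOX9 sgRNA libraries, where it is high, since 0 of 3 control libraries reached its level. A difference between groups was therefore a condition of its being tested, so these p-values do not stand as separate support for the rise. The overlap is 19.0% of the exons of ACTA2-AS1, and gene totals do not say in which part the counts lie. FAS, a death receptor gene that overlaps the other end of ACTA2 over 431 bases, had 1, 0 and 0 counts with the SOX9 sgRNA and 0 in each control library.

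The myoepithelial markers, which ACTA2 shares its cells with in the breast, summed to 138 to 146 CPM over 5 genes with the SOX9 sgRNA and 101 to 137 with the control sgRNA. TP63 and OXTR were at 0 in every library, and KRT5 had 113, 102 and 127 counts with the SOX9 sgRNA and 62, 78 and 79 with the control sgRNA (log2 fold change 0.41, SE 0.18, adjusted p = 0.17 by edgeR). Of the smooth muscle markers 2 were tested and 0 called by edgeR (1 higher and 0 lower at an unadjusted p under 0.05, and 0 by DESeq2). MYH11, the smooth muscle myosin heavy chain, had 119, 106 and 118 counts with the SOX9 sgRNA and 72, 84 and 67 with the control sgRNA, without overlap (log2 fold change 0.40, adjusted p = 0.19 by edgeR), and has exons opposite. SMTN, which encodes smoothelin, had 30, 25 and 44 counts with the SOX9 sgRNA and 39, 38 and 36 with the control sgRNA (-0.44, adjusted p = 0.42 by edgeR). LMOD1, which encodes an actin nucleator of smooth muscle, had 2 to 6 counts with the SOX9 sgRNA and 0 to 1 with the control sgRNA. The 5 markers summed to 166 to 182 CPM with the SOX9 sgRNA and 148 to 156 with the control sgRNA. Their part in the rise opposite ACTA2 was not tested.

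MYL9 encodes the regulatory light chain of smooth muscle and non-muscle myosin II, whose phosphorylation switches contraction on. Its own counts (ENSG00000101335, chromosome 20, 35169887 to 35178228, plus strand) were 10, 18 and 20 with the SOX9 sgRNA and 17, 16 and 8 with the control sgRNA, with a log2 fold change of 0.00 (SE 0.48, adjusted p = 0.9998 by edgeR) and a wide 95% interval from -0.96 to 0.96. ENSG00000259716 (chromosome 20, 35177530 to 35232932, minus strand) lies opposite, and 96.9% of its exon length, 692 bases, falls on exons of MYL9. It had 498, 487 and 618 counts with the SOX9 sgRNA and 336, 369 and 307 with the control sgRNA. These were 611 ± 18.6 CPM in SOX9 sgRNA libraries and 453 ± 14.1 CPM in control libraries (SD, n = 3 each), without overlap. The log2 fold change was 0.43 (SE 0.095, adjusted p = 7.23e-04 by edgeR), a 1.35-fold rise, and ran from 0.40 to 0.45 with any library left out.

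TPM1 encodes a tropomyosin, the coiled coil that lies along actin filaments and governs access of myosin. Its own counts (ENSG00000140416, chromosome 15, 63334831 to 63364114, plus strand) were 21, 13 and 17 with the SOX9 sgRNA and 4, 7 and 4 with the control sgRNA, without overlap. The log2 fold change of 1.52 (SE 0.56, adjusted p = 0.079 by edgeR) did not pass the threshold, although it did with library totals (1.70, edgeR adjusted p = 0.035). TPM1 too passed the filter only through the SOX9 sgRNA libraries, where it is high. At the end of the gene, ENSG00000259627 (chromosome 15, 63362224 to 63364110, minus strand) lies with all of its 691 exon bases on TPM1 exons. It had 178, 152 and 267 counts with the SOX9 sgRNA and 114, 85 and 113 with the control sgRNA, without overlap once scaled. In CPM it had 224 ± 32.3 with the SOX9 sgRNA and 141 ± 28.98 with the control sgRNA (SD, n = 3 each), and rose by 0.68 on the log2 scale (SE 0.15, adjusted p = 0.0011 by edgeR). The value ran from 0.51 to 0.78 with any library left out.

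TPM1-AS (ENSG00000259498, chromosome 15, 63338233 to 63341586, minus strand), nearer the start of TPM1, overlaps TPM1 exons over 450 bases, 13.4% of its own. It had 328, 338 and 467 counts with the SOX9 sgRNA and 333, 336 and 245 with the control sgRNA (log2 fold change 0.07, SE 0.11, adjusted p = 0.77 by edgeR, 95% interval -0.14 to 0.29). The ratio of ENSG00000259627 to TPM1-AS was 0.543, 0.450 and 0.572 with the SOX9 sgRNA and 0.342, 0.253 and 0.461 with the control sgRNA. The groups overlapped in this ratio, and the exact two-sided permutation test on its log2 gave p = 0.20, so a difference in response between the 2 genes opposite TPM1 was not shown.

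TAGLN encodes transgelin, an actin cross-linking protein of contractile cells. Its counts (ENSG00000149591, chromosome 11, 117070037 to 117075498, plus strand) were 11, 6 and 12 with the SOX9 sgRNA and 4, 10 and 3 with the control sgRNA, and were too few for the test. PCSK7, a proprotein convertase gene (ENSG00000160613, chromosome 11, 117075053 to 117103241, minus strand), overlaps the end of TAGLN over 446 bases, 2.00% of its exons. It had 25, 20 and 33 counts with the SOX9 sgRNA and 23, 11 and 12 with the control sgRNA (log2 fold change 0.51, SE 0.37, adjusted p = 0.47 by edgeR). Of the genes opposite the contractile members, the called rises were those opposite ACTA2 and MYL9 and at the end of TPM1.

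AIF1L encodes an actin-bundling protein related to the macrophage protein AIF1. It has no annotated exon opposite it, and its own counts (ENSG00000126878, chromosome 9, 133971863 to 133998539, plus strand) were 16, 4 and 10 with the SOX9 sgRNA, against 42, 33 and 45 with the control sgRNA. The groups did not overlap. In CPM these were 11.4 ± 7.18 with the SOX9 sgRNA and 54.2 ± 11.5 with the control sgRNA (SD, n = 3 each), a log2 fold change of -2.23 (SE 0.37, 95% interval -2.97 to -1.49, adjusted p = 5.12e-06 by edgeR). This was the largest fall among the tested members, and it ran from -2.79 without SOX9 sgRNA library 1 to -1.93 without SOX9 sgRNA library 2. The gene passed the filter mainly through the control libraries, since 1 of 3 SOX9 sgRNA libraries reached its level. Its level in the control libraries, where it is high, was therefore a condition of its being tested.

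The counts opposite the tubulin genes were the highest among the members and the genes opposite them, and they fell. TUBA1B encodes a ubiquitous alpha tubulin and had 23, 22 and 25 counts under its own identifier (ENSG00000123416, chromosome 12, 49521565 to 49525180, minus strand) with the SOX9 sgRNA and 22, 15 and 19 with the control sgRNA. Its log2 fold change was 0.09 (SE 0.36, adjusted p = 0.93 by edgeR), with a 95% interval from -0.63 to 0.80. TUBA1B-AS1 (ENSG00000258017, chromosome 12, 49521565 to 49541652, plus strand) shares 1309 of its exon bases, 80.2%, with TUBA1B on the other strand, and held rank 6 of all genes by mean raw CPM. It had 8424, 8386 and 10718 counts with the SOX9 sgRNA and 10950, 11951 and 10151 with the control sgRNA. In CPM this was 10493 ± 380 with the SOX9 sgRNA and 14796 ± 329 with the control sgRNA (SD, n = 3 each), with no overlap. The log2 fold change was -0.50 (SE 0.048, adjusted p = 3.57e-13 by edgeR), a fold of 0.709, and stayed between -0.53 and -0.48 with any library left out.

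TUBB, the main beta tubulin gene of many cell types, had 153, 126 and 227 counts (ENSG00000196230, chromosome 6, 30687978 to 30693203, plus strand) with the SOX9 sgRNA and 193, 185 and 162 with the control sgRNA. Scaled values did not overlap, at 190 ± 28.99 CPM with the SOX9 sgRNA and 242 ± 13.7 CPM with the control sgRNA (SD, n = 3 each), but the log2 fold change of -0.34 (SE 0.14, adjusted p = 0.12 by edgeR) did not pass the threshold. It did without SOX9 sgRNA library 3 (-0.48, adjusted p = 0.042 by edgeR). ENSG00000272540 (chromosome 6, 30690882 to 30691654, minus strand) lies opposite over 538 bases, 69.6% of its exons, and held rank 4 of all genes. Its counts were 11691, 10788 and 12715 with the SOX9 sgRNA and 12825, 13916 and 12075 with the control sgRNA. In CPM they were 13493 ± 966 with the SOX9 sgRNA and 17385 ± 275 with the control sgRNA (SD, n = 3 each), without overlap, a log2 fold change of -0.37 (SE 0.048, adjusted p = 1.56e-08 by edgeR). The range with any library left out was -0.40 to -0.31. The 2 genes opposite tubulins kept their falls under every alternative that was run, at -0.31 for TUBA1B-AS1 and -0.18 for ENSG00000272540 with library totals, a scaling under which the median of all tested genes was 0.19 in place of 0.01.

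In every pair but ACTA2 with FAS, most counts stood on the opposite gene in all 6 libraries. The share of a pair's counts on the opposite gene was 99.7% to 99.9% for TUBA1B with TUBA1B-AS1 and 98.2% to 98.8% for TUBB with ENSG00000272540 over the 6 libraries. It was 95.2% to 98.0% for MYL9 with ENSG00000259716. For TPM1 it was 94.0% to 98.8% with TPM1-AS and 89.4% to 96.6% with ENSG00000259627. The opposite gene held the smallest share for TAGLN with PCSK7, at 52.4% to 85.2%, with wide intervals. PCSK7 has 22303 exon bases against 3917 for TAGLN, and per kilobase of exon it lay below TAGLN. With the SOX9 sgRNA PCSK7 stood at 1.32 CPM per kilobase and TAGLN at 2.79, and with the control sgRNA at 0.926 and 1.90. For ACTA2 with ACTA2-AS1 the share was 91.4% to 100% with the SOX9 sgRNA and 100% in each control library, where control library 3 rested on 3 counts (exact Clopper-Pearson 95% interval from 29.2%). The intervals cover counting error only.

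**Figure D2:**
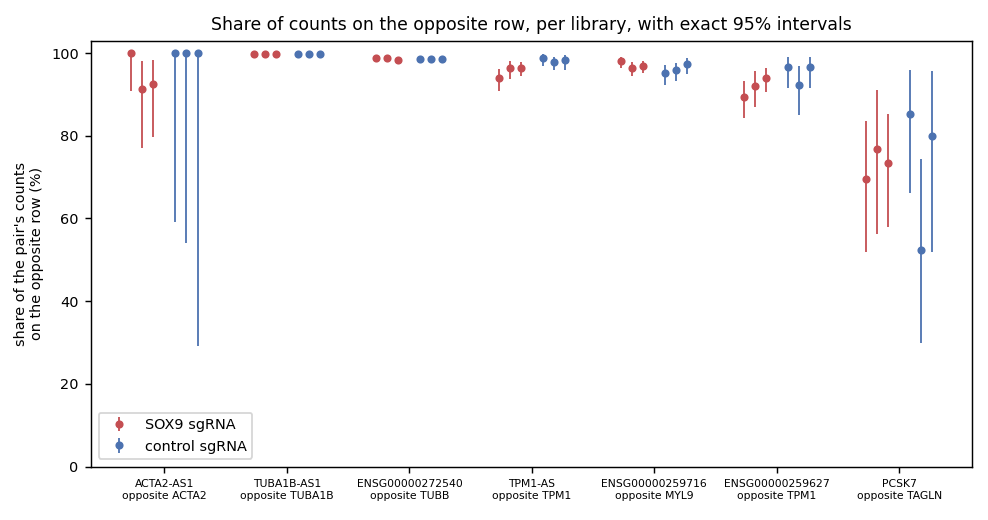
Share of the summed counts of a gene and the gene opposite it that stood on the opposite gene, per library, in percent, with exact Clopper-Pearson 95% intervals; red is SOX9 sgRNA and blue control sgRNA. All pairs drawn but PCSK7 with TAGLN lie at or above 89.4% in every library; ACTA2 with FAS, at 1 to 3 counts in SOX9 sgRNA libraries and 0 in control libraries, is not drawn.

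The mean share was 99.74% with the SOX9 sgRNA and 99.83% with the control sgRNA for TUBA1B, and for TPM1 with TPM1-AS it was 95.6% with the SOX9 sgRNA and 98.4% with the control sgRNA, each in groups that did not overlap, at the smallest p the design allows (exact two-sided permutation test, p = 0.10). In the other 5 pairs the p lay between 0.20 and 1.0. Set per kilobase of exon, TUBA1B-AS1 stood at 6429 CPM per kilobase with the SOX9 sgRNA and 9066 with the control sgRNA, while TUBA1B stood at 7.52 with the SOX9 sgRNA and 7.06 with the control sgRNA. ENSG00000272540 stood at 17455 CPM per kilobase with the SOX9 sgRNA and 22490 with the control sgRNA, while TUBB stood at 56.5 with the SOX9 sgRNA and 71.996 with the control sgRNA. On the same scale ACTG1 had 1117 with the SOX9 sgRNA and 1235 with the control sgRNA. ACTB, with 314 in SOX9 sgRNA libraries and 381 in control libraries, lay below it. The gene opposite MYL9 had 856 with the SOX9 sgRNA and 634 with the control sgRNA, and ACTA2-AS1 had 15.1 with the SOX9 sgRNA and 2.61 with the control sgRNA. The order of levels from the gene opposite TUBB through TUBA1B-AS1 and ACTG1 to ACTB was the same in both groups. The ACTG1 value rests largely on the 84-base gene within it, whose count equals 69.5% to 73.7% of the ACTG1 count. For ACTB the corresponding share is 3.35% to 5%, so the place of ACTG1 above ACTB may not hold outside that stretch. A short gene gains on this scale, because any fragment that touches it counts.

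**Figure D3:**
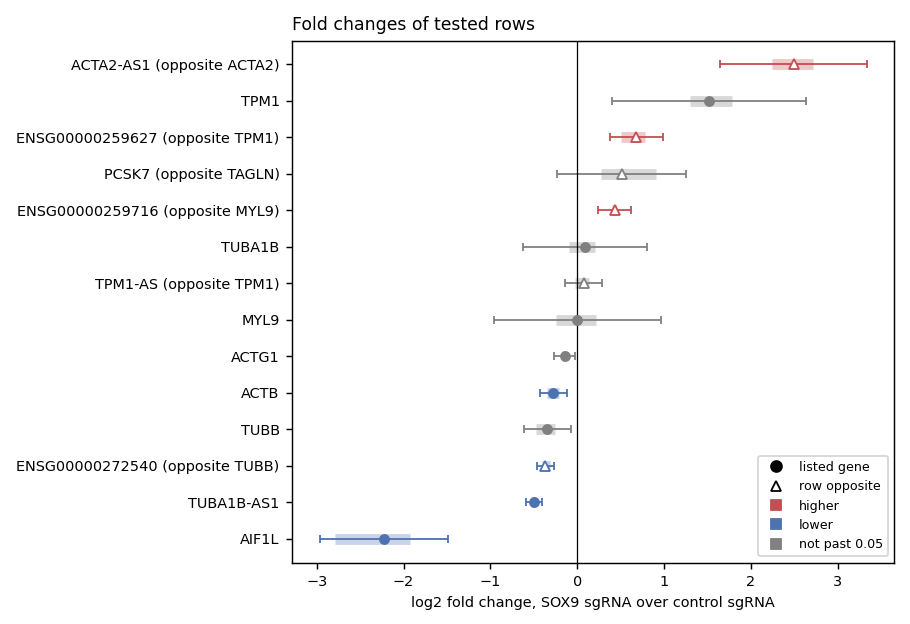
Log2 fold change of the 14 tested genes, SOX9 sgRNA over control sgRNA (horizontal axis), with 95% intervals as thin bars and the range over fits that leave out 1 library as pale bands. Circles are listed genes and triangles genes opposite them; ACTA2-AS1 is farthest to the right at 2.49 and AIF1L farthest to the left at -2.23.

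Other genes of the cytoskeleton were read from lists of related genes, apart from the 10 above and the genes opposite them. Over all genes tested 2.99% were higher and 6.02% lower. For those that overlap an exon in the opposite direction it was 3.4% higher and 7.86% lower. No list was tested against these shares. Of 10 tested tropomyosin and non-muscle myosin II genes, 0 were called in either direction by edgeR (1 higher and 0 lower at an unadjusted p under 0.05, and 0 by DESeq2), with a median log2 fold change of 0.08 where that of all genes was 0.01. MYH10, the heavy chain of non-muscle myosin IIB, came closest, with 58, 52 and 55 counts with the SOX9 sgRNA and 34, 21 and 26 with the control sgRNA (log2 fold change 0.80, SE 0.28, adjusted p = 0.058 by edgeR). Of 7 genes opposite them 0 were called (2 higher and 1 lower unadjusted, and 0 by DESeq2).

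The share called lower over all genes tested was 6.02%. Of 15 other genes of the SRF and MRTF pathway and its contractile targets, 0 were higher and 2 lower (0 and 3 at an unadjusted p under 0.05, and 0 and 2 by DESeq2), with a median of -0.38. The falls were in CNN3, an acidic calponin, with 16, 16 and 23 counts with the SOX9 sgRNA and 47, 21 and 31 with the control sgRNA (log2 fold change -1.09, SE 0.34, adjusted p = 0.029 by edgeR), and in CALD1, which encodes caldesmon, with 5, 4 and 6 counts with the SOX9 sgRNA and 11, 22 and 11 with the control sgRNA (-1.75, SE 0.59, adjusted p = 0.046 by edgeR). Neither has an exon opposite, and CALD1 passed the filter only through the control libraries, where it is high, so a difference between groups was a condition of its being tested. The CALD1 call was lost when any of the 6 libraries was left out (edgeR adjusted p from 0.061 to 0.36), and the CNN3 call without control library 1 (-0.77) or SOX9 sgRNA library 1 (-1.04), 2 (-1.09) or 3 (-1.15). Both were also lost with library totals, at -0.90 for CNN3 and -1.57 for CALD1. Of 5 genes opposite this list 0 were called by edgeR (1 higher and 0 lower unadjusted, and 0 by DESeq2), with a median of 0.21. ENSG00000238273, opposite FHL2, stood at 0.84 without overlap of the groups (adjusted p = 0.15 by edgeR). Among all tested genes that overlap an exon in the opposite direction 3.4% were higher. These 5 genes are too few to set against that share or against the rises opposite ACTA2, MYL9 and TPM1.

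The share called lower among all tested genes that overlap an exon in the opposite direction was 7.86%. Of 13 tested genes opposite the machinery of actin filament turnover, 0 were higher and 5 lower (0 and 6 at an unadjusted p under 0.05, and 0 and 5 by DESeq2), with a median of -0.28. Of these, 4 lay opposite PFN1, which encodes the actin monomer-binding profilin (ENO3, log2 fold change -0.39), CFL1, which encodes the filament-severing cofilin (SNX32, -0.28), ARPC1B of the Arp2/3 nucleation complex (PDAP1, -0.36) and the thymosin gene TMSB10 (TRABD2A, -0.41). With library totals the values opposite CFL1 (-0.10), ARPC1B (-0.18) and TMSB10 (-0.23) kept their sign and lost their calls, and that opposite TMSB10 was also lost without control library 3 (-0.29) or SOX9 sgRNA library 3 (-0.30). TRABD2A overlaps TMSB10 over 9 bases. PDAP1 also lies opposite BUD31. ENO3, SNX32, PDAP1 and TRABD2A are protein-coding genes in their own right. Of 25 genes of this list counted under their own identifiers, 0 were called (2 higher and 1 lower unadjusted, and 0 by DESeq2), with a median of 0.02.

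Among 6 other alpha and beta tubulin genes tested, 1 was lower and 0 higher (2 and 0 at an unadjusted p under 0.05, and 1 and 0 by DESeq2), with a median of -0.03. Over all genes tested 6.02% were lower. TUBA1C, an alpha tubulin that lies opposite TUBA1A and ENSG00000258232, had 341, 406 and 414 counts with the SOX9 sgRNA and 434, 588 and 420 with the control sgRNA (log2 fold change -0.53, SE 0.10, adjusted p = 1.02e-04 by edgeR). TUBB6, a beta tubulin opposite AFG3L2, had 1415, 1292 and 1846 counts with the SOX9 sgRNA and 1412, 1496 and 1347 with the control sgRNA (-0.14, SE 0.068, adjusted p = 0.21 by edgeR). Of 8 genes opposite these tubulins, TUBA1C itself was the 1 called lower, with 0 higher (3 and 0 unadjusted, and 1 and 0 by DESeq2).

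Beside the 6.02% called lower over all genes tested stands the last list. Of 19 genes for tubulin folding, nucleation and microtubule binding, 3 were lower and 0 higher (4 and 0 at an unadjusted p under 0.05, and 3 and 0 by DESeq2), with a median of -0.21. These were TCP1, a subunit of the chaperonin that folds actin and tubulin (log2 fold change -0.80, SE 0.11, adjusted p = 2.88e-08 by edgeR), which lies opposite ACAT2; TBCB, a tubulin folding cofactor (-0.58, SE 0.079, adjusted p = 5.13e-08 by edgeR), opposite POLR2I; and TUBGCP2 of the gamma tubulin complex (-0.49, SE 0.12, adjusted p = 0.0025 by edgeR), opposite ZNF511. The last call was lost with library totals (-0.31). Of 8 genes opposite this list, ENSG00000271980, opposite the chaperonin subunit gene CCT5 over 1757 bases, was the 1 called lower, with 920, 738 and 959 counts with the SOX9 sgRNA and 1237, 1174 and 997 with the control sgRNA (-0.61, SE 0.077, adjusted p = 6.12e-09 by edgeR), and 0 were higher (3 and 0 unadjusted, and 1 and 0 by DESeq2).

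**Figure D4:**
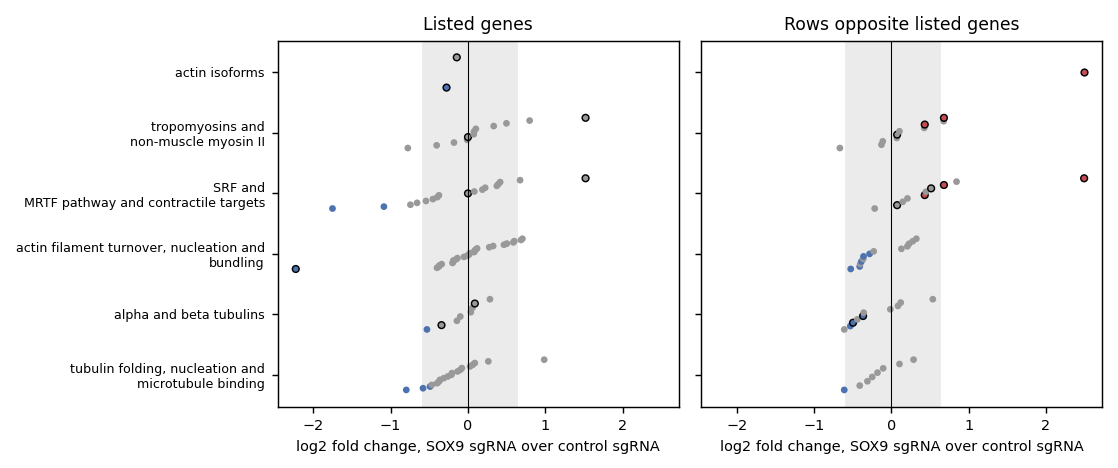
Log2 fold changes, SOX9 sgRNA over control sgRNA, of tested genes of each of the 6 cytoskeleton lists (left) and of genes opposite them (right); red is called higher, blue called lower, black outlines mark the 10 genes and those opposite them, and grey bands span the 10th to 90th percentile of all tested genes (-0.58 to 0.63). Called rises on the right are those opposite ACTA2, MYL9 and TPM1, and called falls on the right lie in the actin turnover, tubulin and tubulin folding lists.

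Among the epithelial markers 1 of 5 was lower, KRT19 (log2 fold change -0.74, SE 0.13, adjusted p = 1.83e-05 by edgeR). Over all genes tested 6.02% were lower. KRT8 (0.11), KRT18 (0.33), CDH1 (-0.05) and EPCAM (-0.68, without overlap of the groups) did not pass the threshold, and the list was mixed in sign. At an unadjusted p under 0.05, 0 of the 5 markers were higher and 2 lower, and DESeq2 called 0 higher and 1 lower. Of 4 genes opposite them 1 was lower and 0 higher, ENSG00000260798 opposite CDH1, with 1005, 885 and 1405 counts with the SOX9 sgRNA and 1090, 1129 and 1030 with the control sgRNA (log2 fold change -0.23, adjusted p = 0.039 by edgeR). That call was lost with library totals (-0.04) and in each fit that left out 1 library except that without SOX9 sgRNA library 3 (-0.31 to -0.18 over the 6 fits). The leukocyte markers summed to 47.7 to 70.2 CPM with the SOX9 sgRNA and 24.1 to 41.7 with the control sgRNA, with CD3E and LYZ at 0, and the endothelial markers to 10.8 to 15.6 CPM with the SOX9 sgRNA and 2.54 to 17.3 with the control sgRNA, with CDH5 and VWF at 0. Their part in the results was not tested.

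The member with the smallest adjusted p was TUBA1B-AS1. Over the 6 libraries the genes whose log2 CPM ran most like it were ENSG00000254208, opposite E2F5 (Pearson r = 0.998), ADGRG1 (0.998), ANKRD36BP1, opposite SFT2D2 (0.995), SLC25A5-AS1, opposite the mitochondrial ADP/ATP carrier gene SLC25A5 (0.995), and POLR1HASP, opposite POLR1H (0.994). The 6 points share 2 groups of 3 libraries, so r mainly records a difference between the groups. Among these, ADGRG1, which fell by 1.05 on the log2 scale, did not pass the threshold (edgeR adjusted p = 0.061).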

How the data were processed

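RNA of 6 libraries, 3 per group, was counted per gene. The deposited values are raw counts, not normalized, 1 table per library with 57209 genes. The submitters' processing notes name STAR 2.7.10a, featureCounts from Subread 1.6.2 and the build GRCh37 (hg19). Per the file headers, fragments on exons were assigned with strand setting 1 to all genes they touched, from an Ensembl release 75 annotation whose name says that ribosomal RNA genes and the mitochondrial chromosome were removed.

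Symbols came from a table of gene names matched by identifier, which named 38994 genes, and biotypes from GENCODE 29. Exon overlaps of 1 base or more on the other strand were found with bedtools 2.31.1 on the tables' own coordinates. Counts were tested with edgeR 4.0.16 in R 4.3.3 (filterByExpr with a minimum count of 10, TMM factors, robust quasi-likelihood fit, no replicate block), fitted on all genes, with Benjamini-Hochberg adjustment over the 7959 tested and a threshold of 0.05. SE is the log2 fold change divided by the square root of F. DESeq2 1.42.0, other scalings, filters, a replicate block, summed counts and leaving out each library were alternatives. Shares and ratios were compared by exact permutation (scipy 1.17.1).

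Pairs of libraries within a group gave 1.95 to 2.62 chi-square per degree of freedom, above counting error. That does not tell technical from independent replicates. Each library was counted as separate in the tests. The fit was tested on simulated counts with 200 changed genes. These were drawn with the fit's own dispersions and with larger changes than those of ACTB and the genes opposite TUBA1B and TUBB. The simulation therefore does not check calls of such small changes. The members, the 13 lists (177 entries, 175 matched) and the tests were chosen with earlier results of these data known; the reading of genes opposite the listed genes was added after their values had been seen. All members and genes opposite are named, with up to 4 genes of each list by adjusted p, and the fifth called gene opposite the actin turnover list, TRABD2A, was named after its value was seen. The other gene of that group which the rule names is not reported here.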

Additional observations from a re-analysis of the deposited data

How the results depend on the processing

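Scaled by library totals alone, 625 of all tested genes were higher and 249 lower, against 238 and 479, and TPM1 became the 1 member called higher. With no filter on low counts 151 genes were higher. Leaving out 1 library gave 161 to 207 higher and 364 to 430 lower over all genes, 2 to 3 members lower and 0 higher, and 3 genes opposite members higher and 1 lower. The sign turned for 4 genes that were not called: ACTG1 with library totals (0.0383); MYL9 with no filter (-0.0309), with DESeq2 (-0.0163) and with 1 library left out (-0.24 to 0.22); TUBA1B with 1 library left out (-0.0946 to 0.2056, negative without control library 2) and when summed with its opposite counts (-0.49); and TPM1-AS with 1 library left out (-0.0275 to 0.1304, negative without control library 3). Summing own and opposite counts made TPM1 (0.28), MYL9 (0.42), TUBB (-0.37) and TUBA1B (-0.49) pass the threshold. Most of each sum is opposite counts, so these values largely repeat the opposite counts and add no separate evidence about the 4 genes. Replicate numbers are shared between the groups. Same-numbered libraries showed no shared deviation (correlation of deviations -0.043 to 0.025 over 2403 genes), and different-numbered ones gave -0.048 to 0.032. No pairing was seen, but counting error at this depth could hide a weak one. With the replicate block 175 genes were higher and 399 lower, and ACTB, AIF1L and TUBA1B-AS1 were lower, as without it. CNN3 (-1.05), CALD1 (-1.70) and ENSG00000260798 (-0.23) lost their calls with the block. Depth limits the genes with few counts: the 95% intervals of MYL9 and TUBA1B are wide, and TAGLN and ACTA2 could not be tested.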
